A study of Neurospora crassa with 8 samples.

Results

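Respiratory complex I, the NADH:ubiquinone oxidoreductase of the inner mitochondrial membrane, was followed here through 9 of its nuclear subunit genes in the filamentous ascomycete Neurospora crassa. The genes were picked by locus (NCU01765, NCU04044, NCU01169, NCU02534, NCU04074, NCU05009, NCU03953, NCU00484 and NCU01467) out of the 9730 genes in each count file. All 9 passed the filter on low counts and were among the 8118 genes tested. RefSeq (assembly NC12) names them nuo78, nuo51, nuo24, nuo49, nuo30.4, nuo21.3c, nuo19.3, nuo18.4 and nuo10.4. The list under which the genes were chosen called NCU00484 nuo29.9, but RefSeq gives that symbol to NCU05299 and names NCU00484 nuo18.4. NCU00484 is therefore called nuo18.4 below, and nuo29.9 is described among the other subunit genes.

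Complex I takes electrons from NADH at a flavin, passes them along a chain of iron-sulfur clusters in its peripheral arm to ubiquinone, and pumps protons through its membrane arm. The core of the peripheral arm is made of nuclear-encoded subunits, and many further accessory subunits surround the core. Neurospora has long served as a model for how this complex is assembled. It also has alternative NADH dehydrogenases, which pass electrons to ubiquinone without pumping protons. Of the 9 genes, 7 encode the nuclear core: nuo51 (the subunit that binds NADH and flavin), nuo24 and nuo78 on the NADH side, and nuo49, nuo30.4, nuo21.3c and nuo19.3 on the quinone side. The proteins of 5 of these (nuo78, nuo51, nuo24, nuo21.3c and nuo19.3) hold the complex's iron-sulfur clusters, and nuo19.3 holds the last cluster before quinone. nuo49 and nuo30.4 are core subunits that hold none, and the other two, nuo18.4 and nuo10.4, lie outside the core.

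The samples were poly(A) RNA from shaken liquid cultures grown for 48 hours at 32 degrees C in Vogel's minimal medium with 1.5% sucrose. Their labels name both mycelia and germinated conidia. The ve-1 mutant and wild type were each grown without iron and in the standard, iron-containing medium, giving ve-1 iron-free, wild-type iron-free, ve-1 standard and wild-type standard, with 2 cultures in each of the 4 groups. For the iron-free medium, glassware had been stripped of metal with EDTA and acid. VE-1 is a velvet-family regulator of fungal development, and how the ve-1 allele was made is not given in the sources used here.

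Library totals ran from 6654585 to 10192729 counts, and each of the 9 genes had between 215 and 1906 counts in every library. Transcripts of ve-1 were at 20 and 28 counts in ve-1 standard libraries, against 1077 and 1533 in wild-type standard ones. They were at 15 and 80 counts in ve-1 iron-free libraries, against 2977 and 1931 in wild-type iron-free ones. The mating-type gene matA-1 had 403 counts in 1 ve-1 standard culture, 74 in 1 wild-type iron-free culture and 118 in 1 wild-type standard culture, and 0 in the other culture of each of these groups. In the ve-1 iron-free cultures it had 1 and 5. Conidia (asexual spores) can form in such cultures. The summed level of 6 conidial markers (eas, con-6, con-8, con-10, con-13 and fl) was 104400 and 118400 CPM (counts scaled to a common library size) in ve-1 standard libraries and 58570 and 15700 in wild-type standard ones. It was 53380 and 3136 CPM in ve-1 iron-free libraries and 2926 and 6716 in wild-type iron-free ones. Without eas the sum was 12600 and 17130 CPM in ve-1 standard libraries and 4823 and 6375 in wild-type standard ones. It was then 1852 and 650.9 CPM in ve-1 iron-free libraries and 1673 and 5643 in wild-type iron-free ones. con-13 had 0 counts in replicate 2 of both iron-free groups, and the other markers were detected in every group. In the edgeR test described below, 1 of the 6 was called higher in ve-1 in standard medium, as 12.5% of all tested genes were. Without iron in ve-1, 3 were called lower (11.6% of all tested genes were). Between genotypes in iron-free medium 0 were called (18.5% of all tested genes), and for iron in wild type 0 (6.57%). For the difference between the genotype effects 0 were called too (0.246%). The part of these markers in the results below was not tested.

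In standard medium all 9 subunit genes were lower in both ve-1 cultures than in both wild-type cultures, and 7 of them fell by the test. Levels below are CPM scaled with TMM factors, a correction for the composition of each library. Calls are those of edgeR's quasi-likelihood test with Benjamini-Hochberg adjustment over all tested genes, at an adjusted p under 0.05. By that rule 15.3% of all tested genes were called lower in ve-1, and for 38.6% the ve-1 libraries lay below the wild-type ones without overlap. The median log2 fold change of the 9 genes was -1.23, beside -0.03 for all tested genes.

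The accessory gene nuo10.4 fell most. It was at 29.97 and 43.42 CPM in ve-1 standard cultures, against 110.2 and 126.0 CPM in wild-type standard cultures (log2 fold change -1.69, SE 0.24, adjusted p = 0.006). The other 6 libraries, in both genotypes without iron and in wild type with it, held this gene between 110.2 and 127.0 CPM, so the ve-1 standard cultures stood apart from all of them.

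Among the core genes, nuo49, whose product lines the quinone site, was at 36.4 and 48.6 CPM in ve-1 standard cultures, against 107.6 and 129.7 CPM in wild-type standard cultures (log2 fold change -1.48, SE 0.28, adjusted p = 0.0119). Its partner on the quinone side, nuo30.4, was at 89.1 and 112.0 CPM in ve-1 and 203.8 and 229.0 CPM in wild type (-1.11, SE 0.30, adjusted p = 0.0343). Neither pair of groups overlapped. On the NADH side, nuo78, the largest subunit of the peripheral arm, was at 73.7 and 106.8 CPM in ve-1 standard cultures and 199.9 and 245.3 CPM in wild-type ones (-1.30, SE 0.33, adjusted p = 0.0284). nuo24 was at 34.1 and 45.8 CPM in ve-1 and 97.7 and 90.3 CPM in wild type (-1.23, SE 0.27, adjusted p = 0.0169). The accessory gene nuo18.4 was at 45.2 and 73.3 CPM in ve-1 and 120.5 and 159.2 CPM in wild type (-1.24, SE 0.30, adjusted p = 0.0244).

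The smallest differences were in 3 genes of iron-sulfur subunits. nuo19.3 was at 71.37 and 84.02 CPM in ve-1 standard cultures and 130.5 and 147.6 CPM in wild-type ones, and fell by 0.84 on the log2 scale (SE 0.24, adjusted p = 0.0401). nuo51 was at 85.0 and 123.4 CPM in ve-1 and 165.4 and 198.2 CPM in wild type (-0.80 on the log2 scale, SE 0.35, adjusted p = 0.119). nuo21.3c was at 42.2 and 56.3 CPM in ve-1 and 80.5 and 77.0 CPM in wild type (-0.68 on the log2 scale, SE 0.26, adjusted p = 0.0898). For nuo51 and nuo21.3c the groups did not overlap but the test was not passed, and the intervals of 2 SE (-1.50 to -0.11 and -1.20 to -0.15) reach into the range of the genes that fell.

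**Figure D1:**
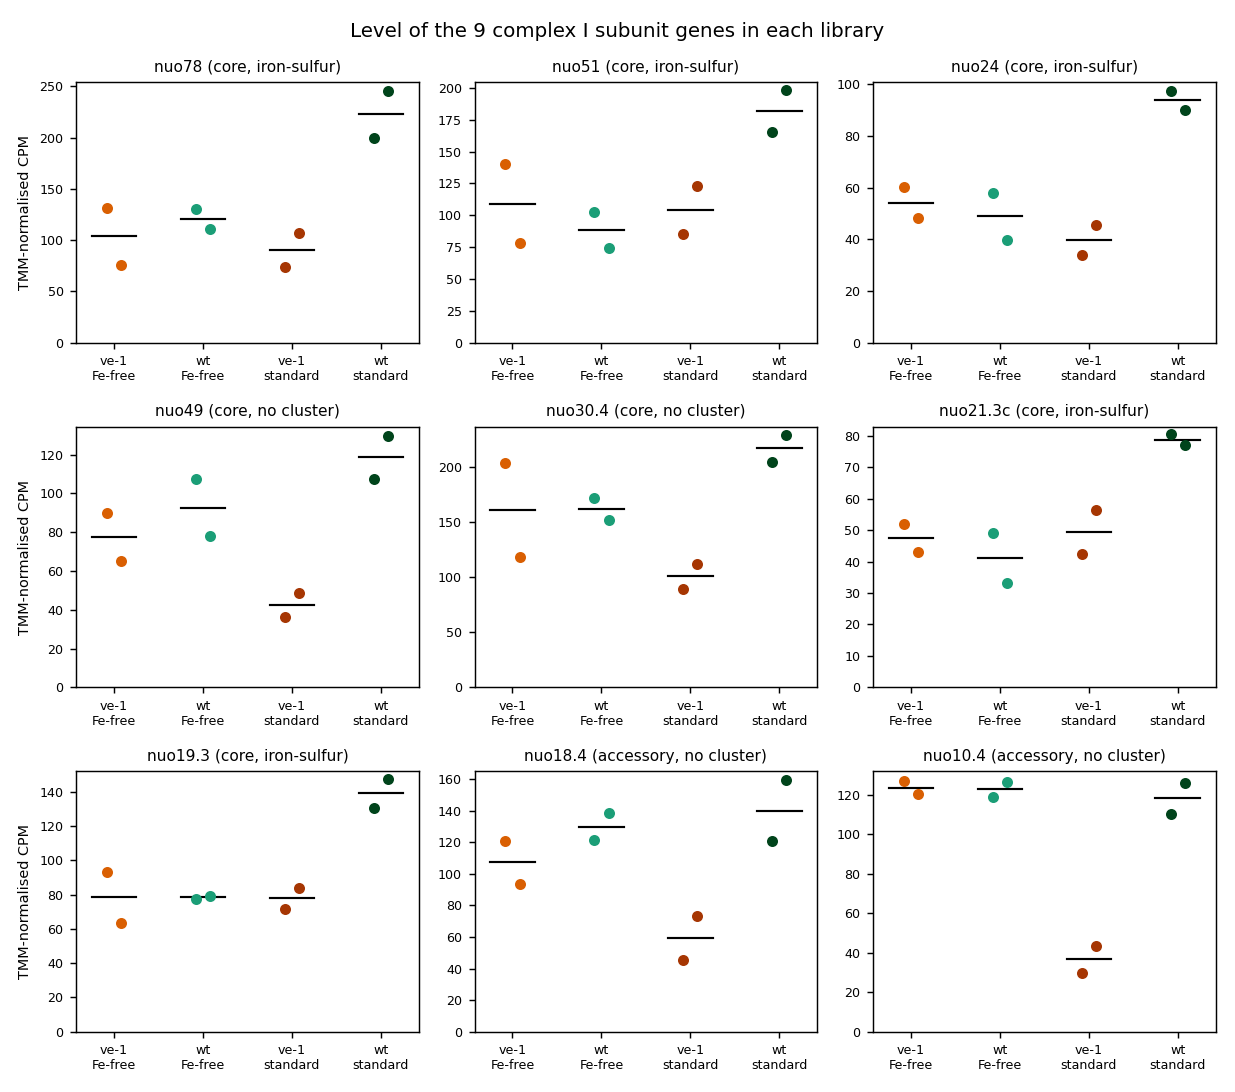
Level of each of the 9 genes in TMM-normalised CPM (vertical axis, from 0) in the 2 cultures of each group (points, replicate 1 left of replicate 2), with the group mean as a bar. For nuo10.4, 6 libraries lie between 110.2 and 127.0 CPM and the ve-1 standard libraries at 29.97 and 43.42, whereas for nuo21.3c it is the wild-type standard libraries, at 80.5 and 77.0 CPM, that lie above the other 6.

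The calls rested on few cultures. With any standard-medium culture left out, fewer of the 9 genes were called in edgeR, and fewer of all tested genes as well. Such a fit leaves 1 culture in a group. Log2 fold changes of the 9 ran from -1.44 to -0.48 without ve-1 standard replicate 1 and from -1.98 to -0.90 without replicate 2. They ran from -1.78 to -0.64 without wild-type standard replicate 1 and from -1.59 to -0.67 without replicate 2. All 9 log2 fold changes stayed negative in each of these fits. When libraries were scaled by their totals, which moved the median of all genes by 0.31, 3 members were called (nuo49, nuo18.4 and nuo10.4), again with all 9 lower. In the authors' deposited table for this comparison 6 of the 9 genes were listed, all lower in ve-1, with nuo51, nuo21.3c and nuo19.3 not listed. It listed 2197 genes in all.

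The remaining genes with a nuo symbol went the same way. Of these 20, 17 were called lower in ve-1 in standard medium and none higher, and all 20 had ve-1 libraries below the wild-type ones. The 3 lowest were nuo29.9 (71.6 ± 19.4 CPM in ve-1 and 243.9 ± 34.2 CPM in wild type, SD, n = 2 each; log2 fold change -1.77), nuo20.1 (-1.54) and nuo21 (-1.49). The 3 highest, none of them called, were nuo10.5 (-0.25), nuo14.8 (-0.44) and nuo17.8 (-0.60). Thus 24 of all 29 were called lower, that is 77.8% of the 9 genes and 85.0% of the other 20. The count of 24 dropped without ve-1 standard replicate 1 or wild-type standard replicate 2, and so did the count over all tested genes. acp-1, which lies next to nuo21.3c in the RefSeq annotation and has nuo9.6 as a synonym there, was not called (194.6 and 213.3 CPM in ve-1, 186.4 and 133.6 CPM in wild type; adjusted p = 0.333). It was singled out after its values had been seen.

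In iron-free medium no difference between ve-1 and wild type was detected in any of the 9 genes. None was called (edgeR, 0 at an unadjusted p under 0.05, 0 in DESeq2), where 18.5% of all tested genes were, and adjusted p values ran from 0.541 to 0.995. nuo10.4 was at 127.0 and 120.3 CPM in ve-1 iron-free cultures and 119.1 and 126.6 CPM in wild-type iron-free cultures (log2 fold change 0.01, SE 0.23). nuo49 was at 89.9 and 65.3 CPM in ve-1 and 107.4 and 77.9 CPM in wild type (-0.26, SE 0.27). The groups overlapped for 8 of the 9 genes. The exception, nuo18.4, was at 121.0 and 93.8 CPM in ve-1 and 121.6 and 138.3 CPM in wild type (-0.28, SE 0.30). For comparison, 29.8% of all tested genes had ve-1 iron-free libraries below the wild-type ones without overlap.

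These data leave room for differences, and not only for small ones. The intervals of 2 SE ran at the widest from -0.87 (nuo78) to 0.98 (nuo51) on the log2 scale, and for nuo10.4 from -0.46 to 0.47, which does not reach its change in standard medium. For nuo78, nuo51, nuo30.4 and nuo19.3 replicate 1 of ve-1 iron-free was well above replicate 2, at 131.8 against 75.7 CPM for nuo78 and 203.2 against 118.1 CPM for nuo30.4. None of the 29 nuo genes was called in this medium by edgeR or DESeq2. Of them 1 had an unadjusted p under 0.05 in edgeR, as 2857 of the 8118 tested genes did.

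The effect of ve-1 was more negative with iron than without it in all 9 genes, but the test of that difference was not passed. The interaction, the log2 ve-1 effect in iron-free medium minus that in standard medium, ran from 0.84 (nuo19.3) to 1.70 (nuo10.4), with a median of 1.09 for the 9 genes and 0.07 for all tested genes. In edgeR none of the 9 was called, with adjusted p from 0.0854 (nuo10.4) to 0.259 (nuo51), and 6 had an unadjusted p under 0.05. Only 0.246% of all tested genes were called in this test, and 1650 of 8118 had an unadjusted p under 0.05. DESeq2 called nuo10.4 (log2 difference 1.65, adjusted p = 0.00231) and none of the other 8. It called 583 of the 9475 genes to which it gave a fold change. Of the 29 nuo genes all had a positive interaction, 0 were called by edgeR and 8 by DESeq2. In nuo24, nuo49 and nuo30.4 the iron-free libraries were above the standard ones in ve-1 and below them in wild type without overlap, as was so for 4.52% of all tested genes.

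**Figure D2:**
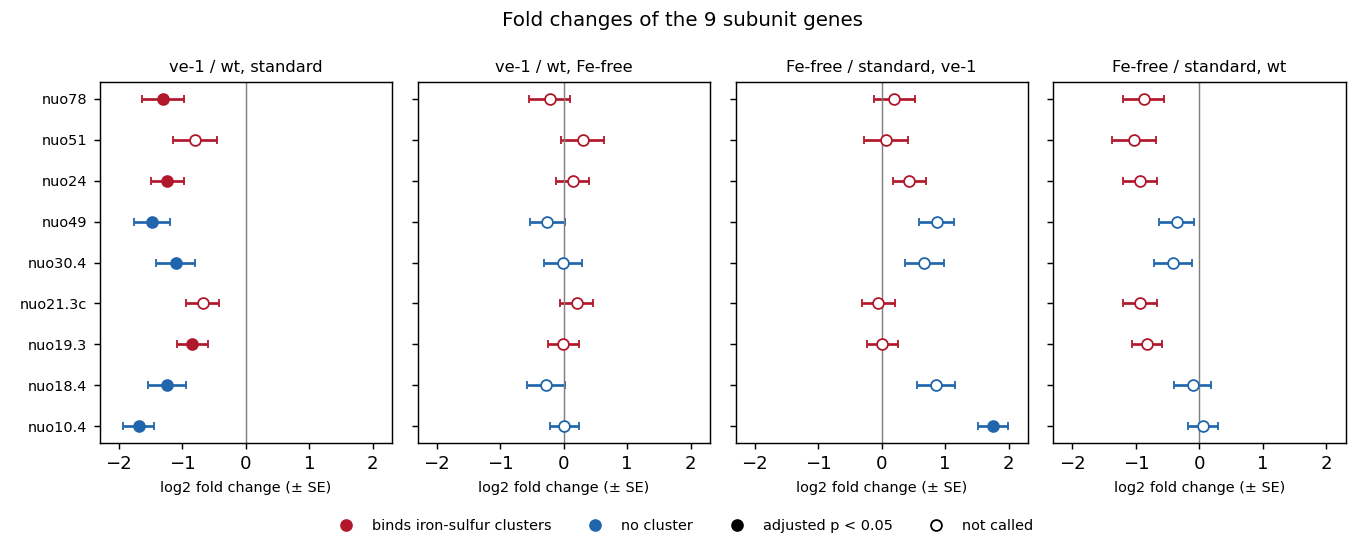
Log2 fold change of the 9 genes (horizontal axis, points with bars of 1 SE) in 4 comparisons, in red where the protein holds iron-sulfur clusters and in blue where it does not, filled where the adjusted p was under 0.05. In standard medium all points lie left of 0, from -1.69 to -0.68, in iron-free medium they lie around 0, and in both comparisons of media the red points lie left of the blue ones.

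In wild type edgeR called none of the 9 genes for absence of iron, and the 5 lowest log2 fold changes were those of the iron-sulfur subunits. That grouping was taken from the known biochemistry of the complex with the values already known, so its pattern is a description, the 5 were not tested against the 4, and intervals of 2 SE overlap between them (-1.31 to -0.34 for nuo19.3 and -1.02 to 0.18 for nuo30.4). The 5 genes of iron-sulfur subunits had log2 fold changes from -1.03 to -0.83, and the other 4 from -0.42 to 0.06. Adjusted p values ran from 0.0773 to 0.146 in the 5 and from 0.417 to 0.904 in the 4, and the unadjusted p was under 0.05 in all 5 iron-sulfur genes and in none of the other 4. Of all tested genes 6.57% were called and 5.1% were called lower. At an unadjusted p under 0.05 were 2072 of the 8118 tested genes, 1244 of them lower. DESeq2 called nuo24 (adjusted p = 0.0472) and nuo21.3c (adjusted p = 0.0474) lower, as it did 836 of the 9475 genes to which it gave a fold change.

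Libraries of both media were apart in all 7 core genes, with or without clusters. nuo51 was at 102.7 and 74.7 CPM in wild-type iron-free cultures and 165.4 and 198.2 CPM in wild-type standard cultures (log2 fold change -1.03, SE 0.35). nuo24 was at 58.1 and 39.8 CPM without iron and 97.7 and 90.3 CPM with it (-0.94, SE 0.26). nuo21.3c was at 49.1 and 33.2 CPM without iron and 80.5 and 77.0 CPM with it (-0.94, SE 0.26). Both media were also apart in nuo78 (130.8 and 111.1 CPM without iron, 199.9 and 245.3 CPM with it, -0.88) and nuo19.3 (77.6 and 79.2 CPM without iron, 130.5 and 147.6 CPM with it, -0.83). Among all tested genes, 29.2% had wild-type iron-free libraries below the standard ones without overlap.

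In the core genes without clusters the iron-free cultures were again lower in both, by a small margin in nuo49. nuo30.4 was at 171.9 and 151.7 CPM in wild-type iron-free cultures and 203.8 and 229.0 CPM in wild-type standard cultures (-0.42, SE 0.30). nuo49 was at 107.4 and 77.9 CPM without iron and 107.6 and 129.7 CPM with it (-0.36, SE 0.27). The media overlapped for the genes outside the core, nuo18.4 (121.6 and 138.3 CPM without iron, 120.5 and 159.2 CPM with it) and nuo10.4 (119.1 and 126.6 CPM without iron, 110.2 and 126.0 CPM with it). Of the 29 nuo genes the 5 iron-sulfur genes had the lowest log2 fold changes and the other core genes, nuo30.4 and nuo49, came next. The 22 nuo genes outside the core ran from -0.21 to 0.35, with a median of -0.04, and none was called.

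Among the 9 genes, the place of the iron-sulfur genes was the same under each setting tried. In all 17 fits made for this comparison, the main one included, the 5 iron-sulfur genes were below the other 4. Log2 fold changes of the 5 lay between -1.24 and -0.31. Most of these fits could hardly change that order. Scaling moves all genes by about the same amount, and ve-1 cultures enter this comparison only through scaling and the shared spread. With a wild-type culture left out, the highest of the 5 ran from -0.88 to -0.59. The lowest of the other 4 then ran from -0.56 to -0.24. The direction of the others did depend on scaling. With libraries scaled by their totals the median of all genes moved by 0.53, nuo49, nuo30.4 and nuo18.4 turned positive (0.19, 0.11 and 0.41), and the 5 stayed negative (-0.48 to -0.31).

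In ve-1, nuo10.4 rose without iron, and no change was detected in the 5 iron-sulfur genes. nuo10.4 was at 127.0 and 120.3 CPM in ve-1 iron-free cultures and 29.97 and 43.42 CPM in ve-1 standard cultures (log2 fold change 1.75, SE 0.24, adjusted p = 0.00844). It was the only one of the 9 genes called, where 10.9% of all tested genes were called higher, and its adjusted p was 0.063 without ve-1 standard replicate 1. Of the genes not called, nuo49 was at 89.9 and 65.3 CPM without iron and 36.4 and 48.6 CPM with it (0.87, SE 0.28, adjusted p = 0.0604). nuo18.4 was at 121.0 and 93.8 CPM without iron and 45.2 and 73.3 CPM with it (0.86, SE 0.30, adjusted p = 0.0755). nuo30.4 was at 203.2 and 118.1 CPM without iron and 89.1 and 112.0 CPM with it (0.68, SE 0.30, adjusted p = 0.14). In nuo49, nuo18.4, nuo30.4, nuo24 and nuo10.4 the iron-free cultures lay above the standard ones, as they did for 34.8% of all tested genes.

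The 5 iron-sulfur genes had log2 fold changes from -0.05 to 0.44 here, with adjusted p from 0.255 to 0.979. They were below the other 4 members in 16 of 17 fits, most of which could hardly change the order. In the exception, without ve-1 iron-free replicate 1, the highest of the 5 was at 0.28 and the lowest of the 4 at 0.24. nuo21.3c was at 52.0 and 43.1 CPM in ve-1 iron-free cultures and 42.2 and 56.3 CPM in ve-1 standard cultures (-0.05, SE 0.26). nuo19.3 was at 93.1 and 63.4 CPM without iron and 71.37 and 84.02 CPM with it (0.01, SE 0.24). nuo51 was at 139.9 and 78.3 CPM without iron and 85.0 and 123.4 CPM with it (0.07, SE 0.34), and nuo78 at 131.8 and 75.7 CPM without iron and 73.7 and 106.8 CPM with it (0.20, SE 0.33). In these 4 genes the media overlapped. In nuo24, at 60.1 and 48.3 CPM without iron and 34.1 and 45.8 CPM with it (0.44, SE 0.26), they did not.

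Outside the core, 18 of the 22 nuo genes were called higher without iron in ve-1 and none lower, with a median log2 fold change of 1.29, against 0 of the 7 core genes, with a median of 0.20. The 4 not called were nuo18.4, nuo6.6, nuo14.8 and nuo10.5. The median over all tested genes was 0.02. The count over all 29 nuo genes, 18, was smaller with any ve-1 culture left out, and so was the count over all tested genes. The median log2 fold change of the 29 was 1.057 with all cultures. It was 0.963 without ve-1 standard replicate 1 and 1.275 without replicate 2. Without ve-1 iron-free replicate 1 it was 0.884, and without replicate 2 it was 1.125. The ve-1 standard libraries enter both this comparison and that of the genotypes in standard medium, so low levels there lower one and raise the other. The difference between core and other genes was not tested.

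**Figure D3:**
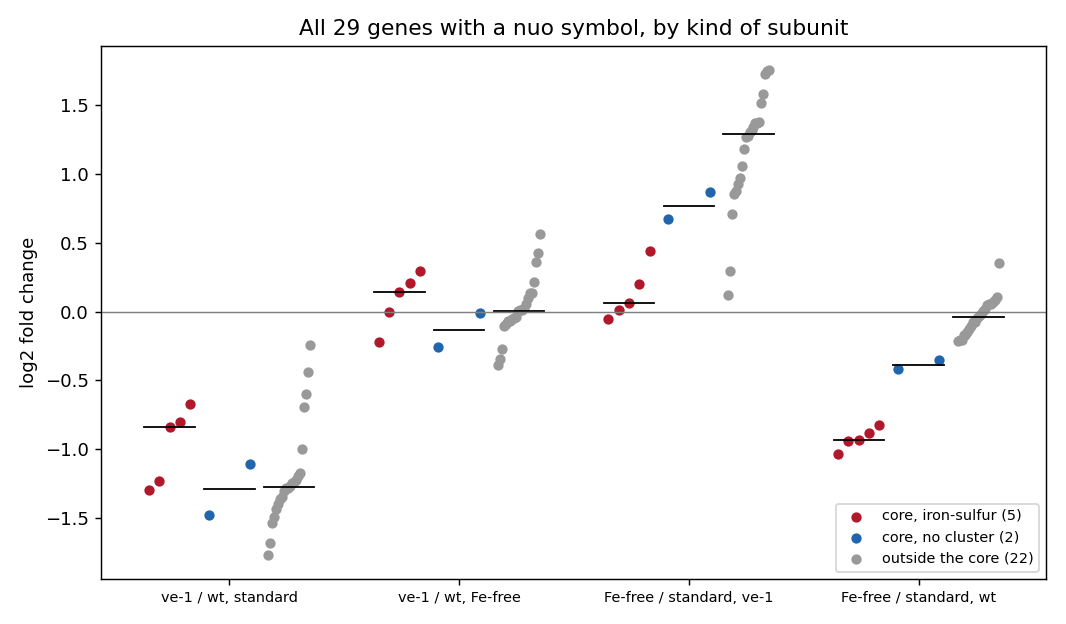
Log2 fold change (vertical axis) of all 29 genes with a nuo symbol in 4 comparisons, with a point per gene, sorted within each kind of subunit, and the median as a bar. Without iron in wild type the 5 iron-sulfur genes lie between -1.03 and -0.83 and the 22 genes outside the core between -0.21 and 0.35. In ve-1 the medians are 0.07 and 1.29.

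Set against one another within a library, the genes need no scaling between libraries. The summed CPM of the 5 iron-sulfur genes, divided by that of the other 24 nuo genes, was 0.130 and 0.103 in ve-1 iron-free libraries and 0.135 and 0.0989 in wild-type iron-free ones. It was 0.234 and 0.239 in ve-1 standard libraries and 0.215 and 0.203 in wild-type standard ones. Each iron-free library was below each standard library. In standard medium both ve-1 values were above both wild-type values. In iron-free medium the genotypes overlapped. The sums behind the ratio, which do depend on scaling, differed between genotypes in how they changed. In wild type the 5 summed to 674.0 and 758.3 CPM with iron and 418.3 and 338.0 without it. The other 24 summed to 3140 and 3728 CPM with it and 3096 and 3417 without. In ve-1 the 5 summed to 306.5 and 416.3 CPM with iron and 477.0 and 308.9 without it, and overlapped. The other 24 summed to 1309 and 1739 CPM with it and 3657 and 2987 without.

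**Figure D4:**
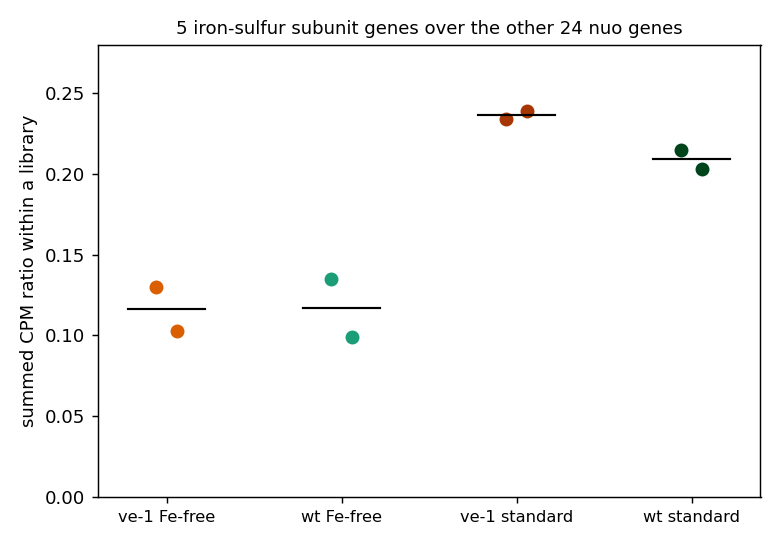
Summed CPM of the 5 iron-sulfur subunit genes over that of the other 24 nuo genes within each library (vertical axis, from 0), with 2 cultures per group as points and their mean as a bar. The 4 iron-free libraries lie between 0.0989 and 0.135 and the 4 standard libraries between 0.203 and 0.239. In wild type the CPM sum of the 5 was lower without iron, and in ve-1 the media overlapped in it.

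Levels of different genes were set side by side per kilobase of annotated gene span, which includes introns. In wild-type standard cultures they ran from 40.4 ± 1.26 CPM per kb for nuo21.3c to 119.9 ± 9.85 for nuo30.4 (SD, n = 2). From low to high the order was nuo21.3c, nuo49, nuo24, nuo78, nuo51, nuo19.3, nuo18.4, nuo10.4 and nuo30.4. The libraries of neighbours overlapped except from nuo21.3c to nuo49, from nuo51 to nuo19.3 and from nuo18.4 to nuo10.4. In ve-1 standard cultures the range was 17.9 ± 3.65 (nuo49) to 55.7 ± 8.99 CPM per kb (nuo30.4), and every pair of neighbours overlapped. nuo10.4 stood at 37.1 ± 9.63 CPM per kb there, with 4 genes below it. In both iron-free groups nuo10.4 was the highest, at 125.1 ± 4.79 CPM per kb in ve-1 and 124.3 ± 5.38 in wild type, and its libraries did not overlap those of the next gene, nuo30.4. nuo21.3c had the lowest mean in both, at 24.4 ± 3.22 CPM per kb in ve-1 and 21.1 ± 5.77 in wild type, but overlapped the next gene in each. Other neighbours that did not overlap were nuo19.3 and nuo18.4 in both iron-free groups, and nuo49 and nuo19.3 in wild type.

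Of the 9 genes, 3 overlap another annotated gene in NC12, and since no strand setting is given for the counts, reads there may be shared. nuo24 overlaps NCU10360 by 307 bases, nuo10.4 overlaps NCU01468 by 227 and nuo51 overlaps NCU04043 by 127. In standard medium NCU10360 was called lower in ve-1 (113.5 CPM in ve-1, 197.2 CPM in wild type, adjusted p = 0.045). NCU01468 and NCU04043 had log2 fold changes of 0.07 and -0.05 in the same comparison.

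The profile of the 9 genes was summarised as the mean of their standardised log2 CPM over the 8 libraries. The members' own correlation with it ran from 0.683 (nuo10.4) to 0.963 (nuo78). The other nuo genes were left out of the ranking of likeness. Among 6597 tested genes without a nuo symbol and with a mean of at least 10 CPM, the 5 most like it were vma-2, a gene of the vacuolar proton ATPase (Pearson r 0.979), NCU04621 (0.978), NCU07442 (0.976), arp-3, a gene named for an actin-related protein (0.968), and NCU03613 (0.956). The points share libraries and groups, so these values only describe likeness. arp-3 was at 123.7 CPM in ve-1 standard cultures and 255.9 CPM in wild-type standard cultures, with 151.4 CPM in ve-1 iron-free and 156.6 CPM in wild-type iron-free cultures.

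Genes of other parts of the respiratory chain gave other values. Both assembly factor genes known for this complex, cia30 and cia84, were tested and neither was called for ve-1 in standard medium, with cia30 at 22.2 and 38.7 CPM in ve-1 and 52.6 and 42.4 CPM in wild type (log2 fold change -0.64, adjusted p = 0.162). Both rose without iron in ve-1 (1.22 and 1.32), where 10.9% of all tested genes did. Of 6 genes of alternative NADH dehydrogenases and alternative oxidases, 1 was called higher in ve-1 in standard medium, as 12.5% of all tested genes were. In iron-free medium 2 of the 6 were called higher in ve-1 (8.36% of all tested genes), and 2 were called higher without iron in ve-1 (10.9% of all tested genes). The gene called in standard medium was ndi-1, at 45.9 and 37.5 CPM in ve-1 and 13.3 and 5.13 CPM in wild type (log2 fold change 2.17, SE 0.67, adjusted p = 0.0488). aod-3, an alternative oxidase gene, was at 1.67 and 16.4 CPM in ve-1 and 11.4 and 19.9 CPM in wild type (adjusted p = 0.606).

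Of 11 genes of cytochrome c, complexes III and IV and the ATP synthase, 0 were called for ve-1 in standard medium by edgeR, and 0 had an unadjusted p under 0.05, with a median log2 fold change of -0.07. Of all tested genes 27.8% were called there, and 3476 of 8118 had an unadjusted p under 0.05. In iron-free medium all 11 rose in ve-1, with a median of 1.73, where 8.36% of all tested genes were called higher. Without iron in ve-1 5 of the 11 rose, beside 10.9% of all tested genes. The cytochrome c gene cyc-1 was at 132.7 and 74.6 CPM in ve-1 iron-free cultures and 6.13 and 4.32 CPM in wild-type iron-free ones (log2 fold change 4.30, SE 0.66, adjusted p = 0.00882). Without iron in wild type 4 of the 11 fell, beside 5.1% of all tested genes. The median log2 fold change of the 11 was -0.99, beside -1.03 to -0.83 for the 5 iron-sulfur genes of complex I. In edgeR 7 of the 11 had an unadjusted p under 0.05, as 2072 of the 8118 tested genes did. The 4 are named here after their values were seen: cyc-1 (-4.21), qcr7 of complex III (-2.32), fes-1, the Rieske iron-sulfur protein of complex III (-1.64), and pep, whose product belongs to complex III and processes imported proteins (-1.50).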

How the data were processed

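Poly(A) RNA of 8 cultures was grouped and numbered by sample title. The authors deposited raw read counts per gene, unnormalized. FastQC, Trim Galore, STAR and DESeq2 stand in the submitters' processing notes. Counter, strand setting, build and annotation were not given in these sources. The authors' 4 deposited comparison tables hold group means of normalized signal, log2 fold changes and adjusted p-values, for genes under an adjusted p of 0.05 alone. They served to see which members are listed.

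The counts went into edgeR 4.0.16 (R 4.3.3): filterByExpr (minimum count 10, minimum total 15), TMM, and 1 robust quasi-likelihood fit of all 4 groups with 4 residual degrees of freedom. Tests were two-sided, adjusted by Benjamini-Hochberg over 8118 genes. The SE is the absolute log2 fold change over the root of F. The fit was tested on simulated data. Genotypes were compared within each medium, media within each genotype, and the difference between both genotype effects was the interaction. DESeq2 1.42.0 was an alternative. Per the design text cultures were in duplicate, and p-values measure the spread between those cultures. That spread can include a difference in mating type, which was not tested. matA-1 counts differed between duplicates in ve-1 standard and in both wild-type groups.

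All 9 members are named. Of other nuo genes the 3 lowest and 3 highest in standard medium are named, and of the other lists together the 4 with the largest changes there (ndi-1, cyc-1, aod-3 and cia30). Others of these lists were named after their values were seen. The members and lists were chosen with earlier results of these data known. RefSeq (NC12) matched 9729 of 9730 genes and gave symbols and spans. No coordinates are printed, since the files' build is not named. Promoter motifs and coding lengths had been planned and were not analysed here. Gene span took the place of coding length.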

Additional observations from a re-analysis of the deposited data

Results flagged for a closer look

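In 3 genes of the nuclear core, every ve-1 culture was higher without iron than with it, while every wild-type culture was lower, a pattern held by 4.52% of all tested genes. In nuo24 the iron-free cultures were at 60.1 and 48.3 CPM in ve-1 and at 58.1 and 39.8 CPM in wild type, and the standard ones at 34.1 and 45.8 CPM in ve-1 and at 97.7 and 90.3 CPM in wild type. The difference of the log2 effects, ve-1 minus wild type, was 1.38 (SE 0.37, edgeR adjusted p = 0.122). For nuo49 it was 1.22 (SE 0.39, adjusted p = 0.156) and for nuo30.4 it was 1.09 (SE 0.42, adjusted p = 0.214). None of the 3 passed the test of the difference, and for nuo49 the lowest wild-type standard value, 107.6 CPM, was barely above the highest iron-free one, 107.4 CPM. With total-count scaling the change of nuo49 and nuo30.4 in wild type was positive.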

How the results depend on the processing

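The 7 of 9 genes called in standard medium became 3 with total-count scaling, 6 with upper-quartile scaling and 0 to 7 when a culture was left out. All 9 stayed lower in ve-1 in every setting. Without a culture, the 24 nuo genes called there numbered 0 to 24 and all genes 104 to 2361. For iron in ve-1 the 1 member called became 3 with total-count scaling and 0 to 1 without a culture, the nuo genes numbered 0 to 17 and all genes 59 to 1756. For iron in wild type the 533 genes called became 1290 with total-count scaling, 125 in a fit of the 4 libraries compared, 1233 in DESeq2 and 7 to 645 without a culture. DESeq2 called 2 members and 2 nuo genes there. Between genotypes in iron-free medium 1500 genes became 940 in a fit of the 4 libraries compared and 586 to 1487 without a culture. The interaction's 20 genes became 35 without the filter on low counts, 583 in DESeq2 (1 member, 8 nuo genes) and 0 to 22 without a culture.

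Total-count scaling moved the median of all genes by 0.31 between genotypes in standard medium, 0.53 for iron in wild type, 0.30 for iron in ve-1 and -0.23 for the interaction. The share of calls that were higher then went to 66.2% against 44.8%, 77.8% against 22.3%, 67.6% against 48.4% and 22.2% against 35.0%. Upper-quartile scaling moved the medians by 0.13 between genotypes in standard medium and 0.11 for iron in wild type, with 54.8% and 32.7% of calls higher.

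Signs of some member log2 fold changes turned, none of them called. Between genotypes in iron-free medium, nuo10.4 was -0.0204 with DESeq2 size factors in edgeR, nuo30.4 was 0.026 and nuo19.3 was 0.039 with upper-quartile scaling and nuo30.4 was 0.054 and nuo19.3 was 0.078 with total-count scaling. There, nuo19.3 was 0.0027 without the filter on low counts, nuo10.4 was -0.012 in a fit of the 4 libraries compared and nuo10.4 was -0.0200 in DESeq2. With a culture left out, nuo49 ran from -0.51 to 0.00022, nuo30.4 ran from -0.45 to 0.33, nuo10.4 ran from -0.0295 to 0.0497 and nuo24 ran from -0.14 to 0.45. With a culture left out, nuo21.3c ran from -0.082 to 0.53, nuo51 ran from -0.18 to 0.66, nuo78 ran from -0.67 to 0.13 and nuo19.3 ran from -0.30 to 0.25. For iron-free against standard medium in wild type, nuo18.4 was 0.0015 with upper-quartile scaling and nuo49 was 0.19, nuo30.4 was 0.11 and nuo18.4 was 0.41 with total-count scaling. With a culture left out, nuo10.4 ran from -0.035 to 0.16 and nuo18.4 ran from -0.29 to 0.11. For iron-free against standard medium in ve-1, nuo19.3 was -0.00502 with DESeq2 size factors in edgeR, nuo21.3c was 0.25 with total-count scaling and nuo19.3 was -0.00091 in DESeq2. With a culture left out, nuo78 ran from -0.25 to 0.55, nuo51 ran from -0.40 to 0.43, nuo19.3 ran from -0.29 to 0.27 and nuo21.3c ran from -0.24 to 0.18.

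Replicate numbers were not taken as pairs, since the labels do not say that they mark a shared batch. Correlations of same-numbered deviations ran from -0.03 to 0.13, which does not settle whether they are pairs. With the replicate block 6 members were called in standard medium (nuo19.3 lost, adjusted p 0.0577), 22 nuo genes and 2034 genes in all. A block within genotype, by codes shared across media, gave 326 genes for iron in wild type, and 12 nuo genes and 1235 genes for iron in ve-1. It gave nuo19.3 in ve-1 a log2 fold change of -0.011. Whether these codes mark strains was not settled. matA-1 had 403 counts in ve-1 standard replicate 2 and 5 in ve-1 iron-free replicate 2. In wild type it had 118 and 74 counts in replicate 1 with and without iron, and 0 in replicate 2 of both media. Causes of the shifts between settings were not tested, and 2 cultures a group limit what could be called.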
